A study of Xenopus tropicalis with 12 samples.

Results

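Explants that carried morpholinos against both SUV4-20H enzymes together with human PHF8 mRNA were compared with explants that carried LacZ mRNA. The comparison took 6 of the 12 libraries of the series, namely hRescue replicates 1 to 3 and LacZ replicates 1 to 3, chosen by the group names in the sample titles. All were animal caps of the frog Xenopus tropicalis at stage NF16, that is, explants of prospective ectoderm that form a mucociliary epidermis in culture. The hRescue explants had received the Suv4-20H1/2 morpholino together with human Phf8 mRNA, whereas the LacZ explants had received LacZ mRNA and no morpholino. Both groups therefore differed in the morpholinos and in the injected mRNA, whose parts cannot be told apart in this comparison, and the morpholinos without PHF8 mRNA were not analysed here. Also used for side values were 3 CoMo libraries, from caps with a control morpholino and no mRNA, and 3 hPhf8 libraries, from caps with human Phf8 mRNA and no morpholino, all of the same stage. Each library was made from several pooled explants. The labels number the replicates but do not say what separates them, so the p-values measure the spread between these libraries.

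Histone H4 lysine 20 is methylated stepwise. SETD8 adds the first methyl group, and SUV4-20H enzymes convert the monomethyl mark to the di- and trimethyl marks. PHF8 is a demethylase that removes the monomethyl mark, and the study lists other histone methyl marks among its substrates. The amphibian embryonic epidermis holds goblet cells, ionocytes and multiciliated cells, whose motile cilia grow from many basal bodies and are built from axonemal dyneins, radial spokes and tubulin under the control of FOXJ1, RFX2 and multicilin. The comparison addresses which transcripts differ from a control explant when SUV4-20H morpholinos and human PHF8 mRNA are injected together. Histone marks were not measured in these libraries.

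The LacZ libraries held 14361942 to 35584520 sense counts over genes and the hRescue libraries 5258667 to 7444628, so each hRescue library was shallower than each LacZ library. Genes with an ID took 43.05% to 45.9% of read pairs in LacZ and 23.4% to 27.9% in hRescue. A single entry that collects all features without a gene ID took 16.6% to 25.8% of feature counts in LacZ and 53.9% to 60.9% in hRescue. For each of these differences the exact two-sided permutation p was 0.1, which is the lowest value possible with 3 libraries in each group (0.16 when adjusted over 8 measures). The hPhf8 replicate 2 library stood apart from all others, with 2204210 sense counts and an antisense share of 23.5%, so its values are uncertain. Levels are given as CPM, the depth-normalised read count, with library sizes scaled by TMM factors, and 1 CPM corresponded to 12.5 to 34.6 counts in a LacZ library and to 5.65 to 8.87 counts in an hRescue library. The LacZ libraries carried the markers of the labelled tissue. The otog transcript of goblet cells lay at 7886, 5788 and 6313 CPM, foxj1 of multiciliated cells at 364, 118 and 263 CPM and atp6v1b1 of ionocytes at 209.5, 79.3 and 243 CPM. Markers of other tissues were near 0 there, with at most 0.0289 CPM for myog of muscle and 0.317 CPM for sox10 of neural crest.

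Of 17044 genes tested with edgeR's quasi-likelihood test, 6659 were called at a Benjamini-Hochberg adjusted p under 0.05, which is 39.1% of the genes tested. The calls went in both directions, with 3141 genes higher in hRescue (18.4%) and 3518 lower (20.6%). The median size of a called change was 1.5 on the log2 scale, and 2307 genes were called higher by at least 2-fold (13.5%) and 2450 lower by at least 2-fold (14.4%). Changes of at least 8-fold were found for 647 of the genes called higher and 419 of those called lower. The CPM ranges of the groups did not overlap for 8929 of all tested genes (52.4%), 6545 of which were among the 6659 called. Genes called higher held 6.49% to 7.81% of gene counts in LacZ and 18.02% to 21.9% in hRescue, whereas genes called lower held 46.0% to 50.5% in LacZ and 25.2% to 29.1% in hRescue. Among the called genes, the median change was smallest in hRescue replicate 3. These genes were called on the same libraries, so the sign of each median was fixed by that choice. The median log2 difference of the genes called higher from their LacZ mean was 1.37, 1.27 and 1.08 in hRescue replicates 1, 2 and 3, and that of the genes called lower was -1.36, -1.43 and -1.2.

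**Figure D1:**
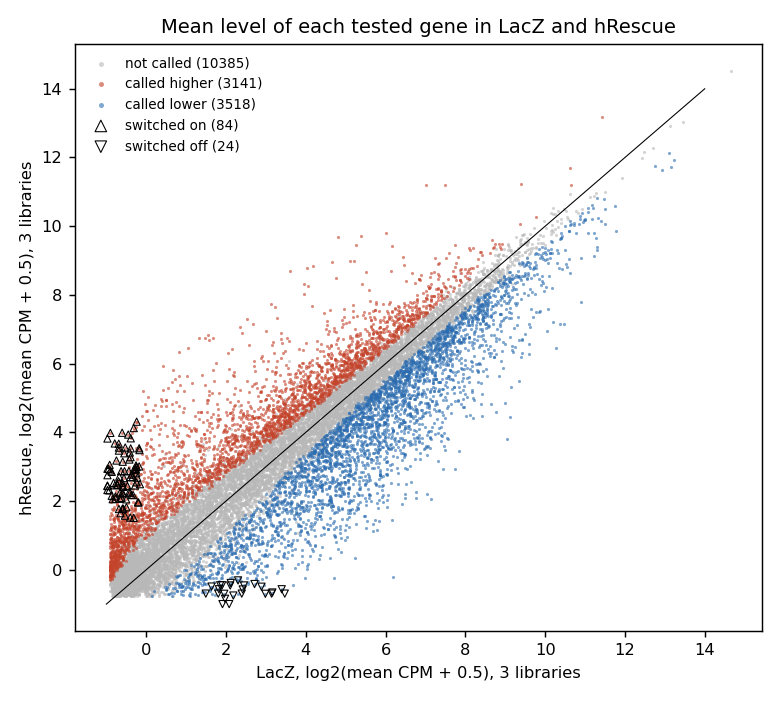
Mean level of each of the 17044 tested genes in LacZ (x axis) and hRescue (y axis), both as log2 of the mean CPM of 3 libraries plus 0.5, with the line of equal level. Red points are the 3141 genes called higher and blue points the 3518 called lower; triangles mark the 84 genes switched on and the 24 switched off, also where the test's filter left them out, and red points dominate at low LacZ levels while blue points dominate at high levels.

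The direction of change differed with the level of a gene in LacZ. Among 3593 tested genes with a mean under 1 CPM in LacZ, 930 were called higher and 9 lower. In the class from 1 to 10 CPM, 958 of 4913 genes were called higher and 545 lower. The balance turned in the class from 10 to 100 CPM, where 1080 of 6167 genes were called higher and 1828 lower. From 100 to 1000 CPM, 170 of 2248 genes were called higher and 1054 lower, and at 1000 CPM and over, 3 of 123 were called higher and 82 lower. The median log2 fold change of all tested genes fell from class to class, from 1.05 through 0.16, -0.13 and -0.45 to -0.73. Because the LacZ level is itself part of the contrast, the classes were also formed from the mean CPM of the 3 CoMo libraries, which took no part in the test. The order was kept, with 883 higher and 25 lower of 3551 genes in the lowest class and 3 higher and 61 lower of 94 genes in the highest. The 9 and 25 lower calls of the lowest classes stand at a level where 1 CPM is fewer than 10 counts in each hRescue library. All classes hold only genes with at least 1 read in 5 of 6 libraries. Genes at 0 counts in several of the shallow hRescue libraries were thus not tested, which removes decreases at low levels. With 1 read required in 3 of 6 libraries, 3165 genes were called higher and 3666 lower, against 3141 and 3518, and these were not split by class. With all 6 libraries thinned to the depth of the shallowest (a check added once the data had been seen), the lowest class had 462 higher and 13 lower calls among 2324 genes, and the highest had 3 and 76 among 123.

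**Figure D2:**
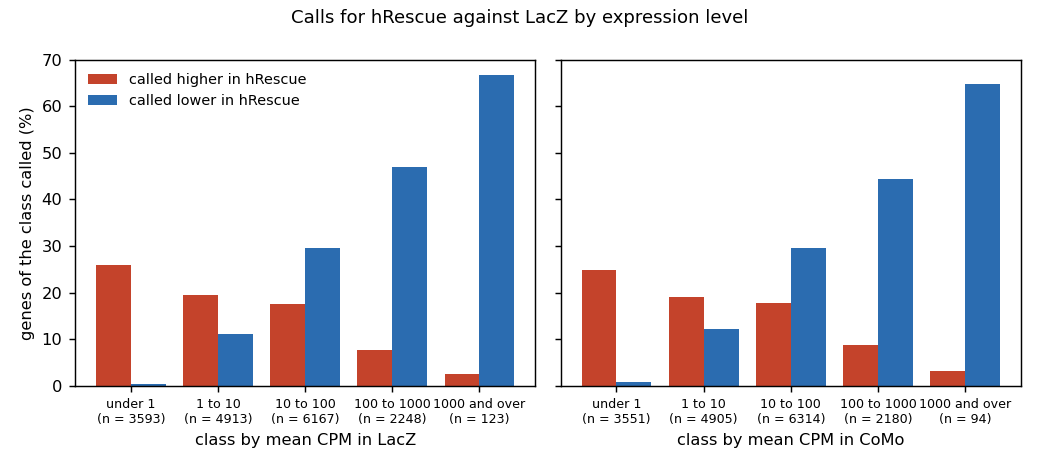
Percent of tested genes called higher (red) and lower (blue) in hRescue against LacZ, by classes of mean CPM in LacZ (left) and in CoMo (right), with the number of genes tested under each class. In both panels the share called lower climbs from the lowest to the highest class and the share called higher falls.

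The 3 genes called higher in the highest class were cldn4, eif4g2 and an ID without a symbol, gene23575. The tight junction gene cldn4 lay at 1739, 1377 and 1634 CPM in LacZ and 2482, 4181 and 3281 CPM in hRescue (log2 fold change 1.07, SE 0.21, adjusted p = 0.0045), and eif4g2, a translation initiation factor, at 1454, 1613 and 1721 CPM in LacZ and 2286, 2449 and 2321 CPM in hRescue (log2 fold change 0.56, SE 0.14, adjusted p = 0.0141). The unnamed ID lay at 2457, 3921 and 1915 CPM in LacZ and 8325, 11404 and 8139 CPM in hRescue, so that hRescue exceeded LacZ in every library of all 3 genes. They were named after their values were seen.

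The most abundant transcripts with a symbol in LacZ mostly fell. The cytoplasmic actin actg1 lay at 8013, 8996 and 10209 CPM in LacZ and 2450.2, 3655 and 3972 CPM in hRescue (log2 fold change -1.43, SE 0.22, adjusted p = 0.00119). The cold-inducible RNA-binding protein gene cirbp had 6146, 7059 and 7598 CPM in LacZ and 2806, 3752 and 3805 CPM in hRescue (log2 fold change -1.01, SE 0.18, adjusted p = 0.00277). The nuclear receptor gene nr6a1 had 3681, 2950.1 and 3829 CPM in LacZ and 732, 811 and 1228 CPM in hRescue (log2 fold change -1.92, SE 0.23, adjusted p = 0.000454). All hRescue values of these genes lay below all LacZ values. The same held for gfpt1, which encodes the first enzyme of hexosamine synthesis (log2 fold change -0.97, adjusted p = 0.00342), and for ahnak, a large scaffold protein (log2 fold change -1.29, adjusted p = 0.0132). The mucin-like otog did not pass the test, at 7886, 5788 and 6313 CPM in LacZ and 4785, 4672 and 5548 CPM in hRescue (log2 fold change -0.41, adjusted p = 0.0934).

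Gene names were taken from the name columns of the study's supplementary tables, which name 6622 of 34177 IDs, 5137 of them with a symbol. Those tables rank genes by their change in other comparisons, 1 of which shares the hRescue libraries and another the LacZ libraries. Named genes were called more often than all genes. Of 4982 tested genes with a symbol, 25.9% were called higher and 39% lower, and the counts of the lists below are read beside these shares.

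Among called genes with a symbol, a mean of at least 100 counts and groups that did not overlap, the largest increases included those of transcription factors. The large Maf factor mafa (gene25417, chromosome 6) lay at 0.541, 0.548 and 0.24 CPM in LacZ and 47.5, 39.3 and 22.8 CPM in hRescue (log2 fold change 6.26, SE 0.41, adjusted p = 8.87e-05). Its relative mafb (gene2297, chromosome 10) lay at 19.0, 8.92 and 7.2 CPM in LacZ and 467, 523 and 256 CPM in hRescue (log2 fold change 5.15, SE 0.44, adjusted p = 0.000167). The basic helix-loop-helix repressor hes2 (gene8247, chromosome 7) lay at 0.782, 1.44 and 0.32 CPM in LacZ and 78.9, 63.7 and 38.6 CPM in hRescue (log2 fold change 5.99, SE 0.48, adjusted p = 0.000126). In each of these genes the lowest hRescue library stood more than 8-fold above the highest LacZ library. For mafa, scaling over 12 libraries gave 0.256, 0.384 and 0.254 CPM in CoMo and 0.482, 1.76 and 0.44 CPM in hPhf8. The other largest increases were those of fosb (log2 fold change 5.52), apc2, a relative of the APC tumour suppressor (5.46), ankrd37 (5.21), fosl1 (5.19), the protocadherin pcdh8 (5.13), the neuropeptide precursor vgf (4.94), ier3 (4.90), jund (4.89) and the protocadherin pcdh9 (4.86), all called with edgeR at adjusted p-values from 8.87e-05 to 0.00106.

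The largest decreases by the same rule included genes known from catecholamine-producing and neurosecretory cells. The granule protein gene chga (gene631, chromosome 8), chromogranin A, lay at 312, 706 and 564 CPM in LacZ and 9.69, 9.36 and 21.4 CPM in hRescue (log2 fold change -5.30, SE 0.44, adjusted p = 0.000145). Dopamine beta-hydroxylase, dbh (gene31040, an unplaced scaffold), which makes noradrenaline, lay at 22.7, 51.9 and 36.6 CPM in LacZ and 0.564, 0.17 and 1.59 CPM in hRescue (log2 fold change -5.62, SE 0.56, adjusted p = 0.000245). The dopamine transporter slc6a3 (gene22586, chromosome 6) lay at 38.9, 119 and 53.9 CPM in LacZ and 1.58, 0.34 and 4.78 CPM in hRescue (log2 fold change -5.03, SE 0.70, adjusted p = 0.000852). LacZ replicate 2 was the highest library for all 3 genes. That every hRescue library lay below every LacZ library was required by the rule. For chga, scaling over 12 libraries gave 151, 629 and 571 CPM in CoMo and 131, 648 and 285 CPM in hPhf8. The others were cat2 (log2 fold change -6.35), c17orf105 (-5.32), the secreted protein gene cthrc1 (-5.06), mettl24 (-5.06), ccdc27 (-5.04), tusc5 (-4.94), the fatty acid elongase gene elovl2 (-4.93) and serp2 (-4.80).

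**Figure D3:**
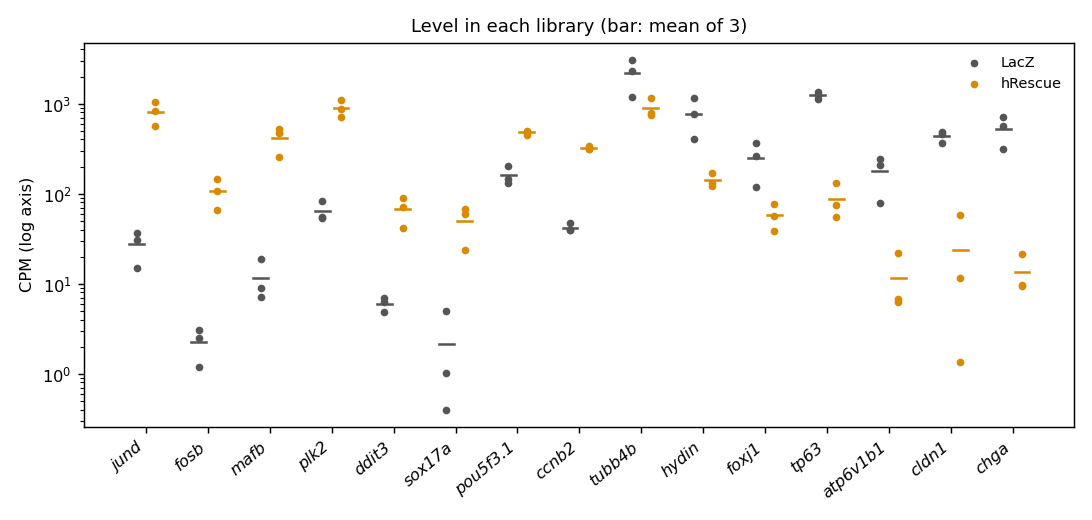
CPM of 15 genes in each library, on a log axis, with LacZ in grey and hRescue in orange; points are the 3 libraries of a group and the bar is their mean. The first 8 genes from jund to ccnb2 lie higher in every hRescue library, and the 7 from tubb4b to chga lie lower in every hRescue library than in any LacZ library.

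Transcripts of motile cilia fell together. Of 74 tested IDs of motile axoneme genes, that is, dyneins, their assembly factors, radial spokes and tektins, 73 were called lower and 0 higher, with a median log2 fold change of -2.40, and 68 to 74 were called lower over the alternatives. The central apparatus gene hydin (gene18035, chromosome 4) lay at 1156, 403 and 767 CPM in LacZ and 131, 121 and 172 CPM in hRescue (log2 fold change -2.46, SE 0.35, adjusted p = 0.000975). The dynein heavy chain dnah7 (gene20140, chromosome 9) lay at 766, 277 and 386 CPM in LacZ and 80.9, 39.3 and 80.3 CPM in hRescue (log2 fold change -2.83, SE 0.42, adjusted p = 0.0011). The most abundant member, the tubulin tubb4b, lay at 3043, 1190.0 and 2276 CPM in LacZ and 779, 752 and 1166 CPM in hRescue and fell less (log2 fold change -1.27, SE 0.33, adjusted p = 0.0152). The groups did not overlap in any of these genes. The largest decrease of the list was that of tppp3, at 37.2, 16.6 and 23.8 CPM in LacZ and 0.451, 1.36 and 2.65 CPM in hRescue (log2 fold change -4.20, SE 0.55, adjusted p = 0.00065), and the smallest was that of dnah5, the only member not called, at 296, 118 and 169 CPM in LacZ and 130.3, 70.5 and 97.5 CPM in hRescue (log2 fold change -0.96, SE 0.34, adjusted p = 0.0531), with overlapping groups. With the replicate number as a block, the dnah5 value was -0.91 and was called (adjusted p = 0.00102). In bulk explants, fewer cells of a type and less RNA per cell cannot be told apart.

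Genes of ciliary transport and of the transition zone at the base of the cilium followed the axoneme. Of 37 tested IDs, 36 were called lower, with a median of -2.25. The retrograde dynein dync2h1 lay at 690.5, 253 and 396 CPM in LacZ and 149.8, 113 and 123 CPM in hRescue (log2 fold change -1.79, SE 0.33, adjusted p = 0.00316), and the intraflagellar transport gene ift122 at 254, 96.9 and 184 CPM in LacZ and 33.0, 21.6 and 42.1 CPM in hRescue (log2 fold change -2.47, SE 0.37, adjusted p = 0.00119). The kinesin subunit gene kif3a lay at 217, 92.8 and 171 CPM in LacZ and 40.9, 24.9 and 47.8 CPM in hRescue (log2 fold change -2.08, SE 0.34, adjusted p = 0.0018). Each of these genes was lower in every hRescue library. The one member called higher was bbs10, a chaperonin-like gene needed for BBSome assembly, at 8.84, 7.04 and 7.76 CPM in LacZ and 24.2, 14.6 and 18.6 CPM in hRescue (log2 fold change 1.29, SE 0.25, adjusted p = 0.0041). It was not called when libraries were scaled with the entry without a gene ID included.

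The regulators upstream of cilia and the genes of centriole amplification were lower as well, in 20 of 23 tested IDs (median log2 fold change -2.11). The ciliogenic transcription factor foxj1 (gene17210, chromosome 10) lay at 364, 118 and 263 CPM in LacZ and 76.6, 38.3 and 57.2 CPM in hRescue (log2 fold change -2.11, SE 0.40, adjusted p = 0.0038). Its partner rfx2 (gene265, chromosome 1) lay at 670.0, 367 and 641 CPM in LacZ and 233, 212 and 261 CPM in hRescue (log2 fold change -1.25, SE 0.23, adjusted p = 0.00328). The forkhead factor foxn4 lay at 455, 200.4 and 388 CPM in LacZ and 45.8, 42.2 and 77.3 CPM in hRescue (log2 fold change -2.66, SE 0.35, adjusted p = 0.00065). For all 3 factors the lowest LacZ library, replicate 2, lay above the highest hRescue library. Centrin cetn4 (log2 fold change -2.71), the centriole assembly gene stil (-2.36), the centriolar cap gene ccp110 (-3.10) and the deuterosome gene ccdc78 (-3.16) were also called lower. The members not called were cep63 (-0.25), sass6.2 (-0.22) and poc1b (0.51).

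The summed level of the axoneme IDs was 17428, 6652 and 11984 CPM in the LacZ libraries and 2836, 2208 and 3464 CPM in hRescue. LacZ replicate 2 was nearest to the hRescue libraries, and hRescue replicate 3 nearest to LacZ. When all 12 libraries were scaled together, the sums were 14208, 6731 and 8432 CPM in CoMo and 10731, 5999.8 and 7604 CPM in hPhf8, all of them above the 2886, 2243 and 3515 CPM of hRescue on that scale, also without hPhf8 replicate 2. The study marks cilium genes by gene ontology in its table of the double knockdown. That table was shortened here and is ranked by change in other libraries, so the 152 IDs tested from it are an incomplete list that favours genes changed in that knockdown. They gave 141 lower and 5 higher calls, with a median of -2.37. The 5 called higher were sag, a visual arrestin gene (log2 fold change 3.90), the scaffold gene slc9a3r1 (2.88), erc1 (0.97), the myosin myo5a (0.84) and the kinase subunit prkar2a (0.79), the last 3 named after their values were seen.

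Genes of the other epidermal cell types were mostly lower as well. Among 22 ionocyte genes, mostly subunits of the proton pump and ion transporters, 15 were called lower and 0 higher (median -1.61). The pump subunit atp6v1b1 (gene29443, chromosome 1) lay at 209.5, 79.3 and 243 CPM in LacZ and 6.31, 6.81 and 21.8 CPM in hRescue (log2 fold change -3.95, SE 0.58, adjusted p = 0.00106), and the anion exchanger slc26a4 at 523, 212 and 750.2 CPM in LacZ and 45.4, 37.3 and 90.4 CPM in hRescue (log2 fold change -3.10, SE 0.49, adjusted p = 0.00153). The carbonic anhydrase ca2 lay at 239.8, 80.5 and 246 CPM in LacZ and 11.0, 4.77 and 24.8 CPM in hRescue (log2 fold change -3.81, SE 0.61, adjusted p = 0.00158). The defining regulator foxi1 did not pass the test, at 281, 187 and 486 CPM in LacZ and 229, 153 and 180.5 CPM in hRescue (log2 fold change -0.76, adjusted p = 0.0922), and its groups overlapped. With the replicate number as a block, the foxi1 log2 fold change was -0.67 and was called (adjusted p = 0.036), as were 20 of the 22 genes. The pump subunit atp6v0c, which all cells use, also overlapped (-0.41, adjusted p = 0.242).

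Of 22 epidermal and goblet cell genes, 15 were called lower and 1 higher. The largest decrease was that of tp63 (gene30880, chromosome 5), the master regulator of stratified epithelium, at 1117, 1260.4 and 1361 CPM in LacZ and 74.8, 54.8 and 131 CPM in hRescue (log2 fold change -3.84, SE 0.32, adjusted p = 0.000147). The pioneer factor foxa1 lay at 80.8, 58.2 and 76.2 CPM in LacZ and 4.62, 10.4 and 13.1 CPM in hRescue (log2 fold change -2.96, SE 0.35, adjusted p = 0.000452). The splicing regulator esrp1 lay at 2755, 2019 and 2715 CPM in LacZ and 736, 693 and 978 CPM in hRescue (log2 fold change -1.64, SE 0.20, adjusted p = 0.000493). No hRescue library reached a LacZ library in any of these regulators. For tp63 the CoMo libraries lay at 1031, 1027 and 1567 CPM and the hPhf8 libraries at 841, 717 and 1085 CPM, scaled over 12 libraries. The plakins evpl (-0.82, adjusted p = 0.021) and ppl (-1.55, adjusted p = 0.00396), keratin krt12 (-2.50) and intelectin itln1 (-2.13) were lower too. The exception was tgm1, a transglutaminase of the cornified envelope, at 1.44, 2.28 and 2.00 CPM in LacZ and 12.4, 13.4 and 9.20 CPM in hRescue (log2 fold change 2.60, SE 0.32, adjusted p = 0.000489). Epithelial junction genes were divided, with 11 lower and 3 higher of 21. The claudin cldn1 lay at 489, 362 and 458 CPM in LacZ and 11.6, 1.36 and 58.2 CPM in hRescue (log2 fold change -4.22, SE 0.91, adjusted p = 0.00685), with a wide spread in hRescue, and the integrin itga3 at 152, 158 and 162 CPM in LacZ and 15.2, 8.17 and 22.3 CPM in hRescue (log2 fold change -3.37, SE 0.32, adjusted p = 0.000212). In contrast, cldn23 rose from 48.2, 48.9 and 50.3 CPM in LacZ to 119, 143 and 147 CPM in hRescue (log2 fold change 1.47, SE 0.15, adjusted p = 0.000254), cldn6.1 was called higher (0.90), and cdh1 (-0.37, adjusted p = 0.0952) and epcam (0.31, adjusted p = 0.209) did not pass the test. Scaled by library size alone, 7 junction genes were called higher.

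**Figure D4:**
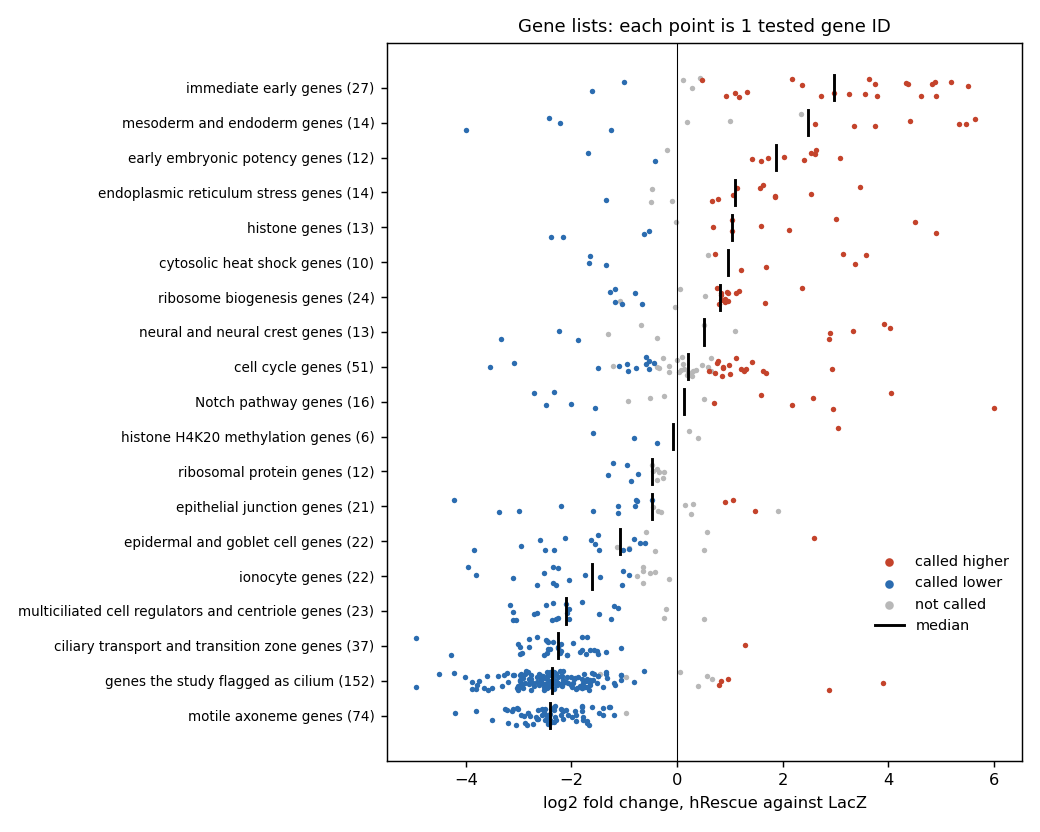
Log2 fold change of hRescue against LacZ for each tested gene ID of 19 lists (x axis), with the number of IDs in brackets; red and blue points are called higher and lower, grey points are not called, and the bar is the list's median. The cilium lists lie almost wholly left of 0, around their medians of -2.40 to -2.11, and the immediate early genes lie furthest to the right, with a median of 2.96.

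Immediate early genes, whose transcripts appear quickly after growth factors, stress or wounding, were the list with the highest median, 2.96 on the log2 scale. Of 27 IDs, 22 were called higher and 2 lower. The AP-1 subunit jund (gene4653, chromosome 1) lay at 30.9, 36.2 and 15 CPM in LacZ and 838, 1049 and 560.4 CPM in hRescue (log2 fold change 4.89, SE 0.39, adjusted p = 0.000119), its relative junb at 67.3, 69.0 and 78.5 CPM in LacZ and 645, 858 and 559.8 CPM in hRescue (log2 fold change 3.26, SE 0.20, adjusted p = 8.87e-05) and fosb (gene30309, chromosome 8) at 3.07, 2.51 and 1.2 CPM in LacZ and 144, 108 and 66.0 CPM in hRescue (log2 fold change 5.52, SE 0.41, adjusted p = 0.000107). Each of them was more than 6-fold higher in the lowest hRescue library than in the highest LacZ library. The others included egr1 (4.84), jun (4.33), fos (3.76), nr4a1 (3.55) and atf3 (3.64), which were named after their values were seen. The members called lower were klf6, a zinc finger factor, at 929.9, 829 and 1201 CPM in LacZ and 267, 289 and 419 CPM in hRescue (log2 fold change -1.60, SE 0.22, adjusted p = 0.000825), and ctgf, a YAP target (-1.01, adjusted p = 0.0449), the latter not called under 10 of 20 alternatives, among them the leave-outs of any library other than LacZ replicate 2. The summed level of the list was 1824 to 2328 CPM in LacZ and 4178 to 5995 CPM in hRescue. It was 1605, 1650.5 and 1902 CPM in CoMo and 1653, 1329 and 1486 CPM in hPhf8 when all 12 libraries were scaled together.

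Endoplasmic reticulum stress genes were mostly higher and heat shock genes were divided. Of 14 endoplasmic reticulum stress genes, 10 were called higher and 1 lower (median 1.1). The factor ddit3 lay at 6.31, 6.96 and 4.80 CPM in LacZ and 70.4, 88.5 and 41.4 CPM in hRescue (log2 fold change 3.46, SE 0.31, adjusted p = 0.000186), the chaperone hspa5 at 141, 197 and 113 CPM in LacZ and 487, 732 and 403 CPM in hRescue (log2 fold change 1.85, SE 0.27, adjusted p = 0.00114) and atf4 at 193, 173 and 213 CPM in LacZ and 521, 649 and 615 CPM in hRescue (log2 fold change 1.62, SE 0.16, adjusted p = 0.000232). The sensor atf6 was lower (-1.35, adjusted p = 0.00331), and xbp1 overlapped between the groups (-0.10, adjusted p = 0.655). The polo-like kinase gene plk2, which is not a member of this list, lay at 53.2, 82.7 and 54.9 CPM in LacZ and 875, 1104 and 706 CPM in hRescue (log2 fold change 3.81, SE 0.25, adjusted p = 8.87e-05). With libraries scaled by the entry without a gene ID, 6 endoplasmic reticulum stress genes were called higher and 4 lower. Of 10 tested genes on the list named cytosolic heat shock genes, 6 were called higher and 3 lower. The 6 include the mitochondrial chaperonin hspd1 (log2 fold change 1.68) and the transcription factor hsf1 (1.21), so the name is only approximate. The summed level of the list overlapped between the groups (387 to 511 CPM in LacZ and 504 to 540.1 CPM in hRescue). The gene hspa1b lay at 2.95, 2.14 and 2.08 CPM in LacZ and 36.2, 36.3 and 13.4 CPM in hRescue (log2 fold change 3.59, SE 0.41, adjusted p = 0.000392) and hsp70 at 49.4, 21.0 and 34.4 CPM in LacZ and 16, 7.66 and 8.85 CPM in hRescue (log2 fold change -1.67, SE 0.38, adjusted p = 0.00849). These copies resemble each other in sequence and their counts are uncertain.

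Genes of early embryonic potency were mostly higher. Of 12 early embryonic potency genes, 9 were called higher and 2 lower (median 1.88). The pluripotency factor pou5f3.1 (gene19970, chromosome 8) lay at 146, 133 and 201 CPM in LacZ and 488, 451 and 496 CPM in hRescue (log2 fold change 1.58, SE 0.18, adjusted p = 0.000408), and the homeobox genes ventx1.1 at 19.9, 29.4 and 18.2 CPM in LacZ and 156, 139 and 124 CPM in hRescue (log2 fold change 2.63, SE 0.22, adjusted p = 0.000155) and ventx2.1 at 61.6, 65.9 and 70.0 CPM in LacZ and 173, 180.4 and 175 CPM in hRescue (log2 fold change 1.42, SE 0.14, adjusted p = 0.000232). The 3 hRescue libraries lay close together in these genes. The RNA-binding protein genes lin28a (-0.42, adjusted p = 0.0479) and lin28b (-1.69, adjusted p = 0.000629) were lower, lin28a without a call under 15 of 20 alternatives, among them the leave-outs of any library other than LacZ replicate 1. The pou5f3 and ventx genes are clustered families whose members share sequence, so single members are uncertain. The summed level of the list was 837 to 1043 CPM in LacZ and 1511 to 1615 CPM in hRescue.

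Mesoderm and endoderm genes included some of the largest increases and some large decreases, with 7 higher and 4 lower of 14 tested. The endoderm factor sox17a (gene2058, chromosome 6) lay at 1.02, 4.94 and 0.4 CPM in LacZ and 59.3, 66.9 and 23.9 CPM in hRescue (log2 fold change 4.42, SE 0.76, adjusted p = 0.00224), the T-box factor eomes (gene5221, chromosome 6) at 0.241, 0.606 and 0.08 CPM in LacZ and 24.3, 17 and 7.79 CPM in hRescue (log2 fold change 5.48, SE 0.64, adjusted p = 0.000416) and the homeobox factor mixer at 0.481, 0.231 and 0.08 CPM in LacZ and 20.4, 14.5 and 6.19 CPM in hRescue (log2 fold change 5.63, SE 0.63, adjusted p = 0.000359). All were low in LacZ and least raised in hRescue replicate 3. The cardiac T-box factor tbx20 fell, at 26.8, 29.6 and 28.3 CPM in LacZ and 1.69, 2.04 and 1.59 CPM in hRescue (log2 fold change -3.99, SE 0.24, adjusted p = 8.87e-05), as did sox7, a vascular factor (-2.42), the ligand apela (-1.26) and the activin antagonist fst (-2.22). The summed level of the 17 IDs found did not separate the groups, at 400.0 to 563 CPM in LacZ and 263 to 455 CPM in hRescue, and myog was at 0 in every hRescue library. Without the names found only in the table that shares the hRescue libraries, 4 of 11 were called higher and 4 lower. Among 13 tested neural and neural crest genes, 5 were called higher and 3 lower. The crest factor sox9 lay at 6.43, 11.2 and 4.88 CPM in LacZ and 158, 152 and 62.6 CPM in hRescue (log2 fold change 4.02, SE 0.44, adjusted p = 0.000334), zic1 at 1.62, 5.60 and 1.04 CPM in LacZ and 68.2, 46.3 and 18.4 CPM in hRescue (log2 fold change 3.92, SE 0.67, adjusted p = 0.00213) and snai1 at 139, 195 and 219.7 CPM in LacZ and 33.9, 47.8 and 36.3 CPM in hRescue (log2 fold change -2.23, SE 0.22, adjusted p = 0.000244). The summed level of that list was 306 to 426 CPM in LacZ and 209 to 406 CPM in hRescue, with sox10 at or near 0 in all 6 libraries. The part of cells of other tissues in these differences was not tested.

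Cell cycle genes did not move as 1 group. Of 51 tested, 17 were called higher, 12 lower and 22 neither, and the median of 0.22 became -0.30 when libraries were scaled with the entry without a gene ID, which left 8 genes called higher. Scaled by library size alone, 6 genes were called lower. The B-type cyclin ccnb2 (gene5292, chromosome 3) lay at 39.9, 46.8 and 39.1 CPM in LacZ and 309.6, 317 and 337 CPM in hRescue (log2 fold change 2.93, SE 0.15, adjusted p = 8.87e-05), the repressor e2f8 at 67.3, 73.5 and 66.7 CPM in LacZ and 179, 273 and 212 CPM in hRescue (log2 fold change 1.68, SE 0.18, adjusted p = 0.000332) and the replication helicase subunit mcm7 at 224, 249 and 288 CPM in LacZ and 466, 402 and 418 CPM in hRescue (log2 fold change 0.76, SE 0.15, adjusted p = 0.00454). The A-type cyclin ccna1 (gene2546, chromosome 2) went the other way, at 223, 117 and 190.0 CPM in LacZ and 10.7, 14.8 and 20.2 CPM in hRescue (log2 fold change -3.55, SE 0.32, adjusted p = 0.000183), and so did cdk6 at 64.8, 17.5 and 49.7 CPM in LacZ and 5.30, 2.72 and 7.43 CPM in hRescue (log2 fold change -3.09, SE 0.52, adjusted p = 0.00204). The mitotic kinesin kif20a overlapped between the groups (0.10, adjusted p = 0.626).

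Of 6 tested genes of H4K20 methylation, 3 were called lower and 1 higher, and 3 were called higher with libraries scaled by library size alone. Leaving out names known only through the comparison that shares the hRescue libraries, 5 genes remained, with 3 called lower and 0 higher. Translation-blocking morpholinos leave mRNA in place, so the levels of the targeted genes do not check the labels, and human PHF8 mRNA cannot be assumed to map to the frog gene. The targeted gene suv420h1 (gene4955, chromosome 4) lay at 108, 111 and 96.6 CPM in LacZ and 60.4, 52.3 and 66.5 CPM in hRescue (log2 fold change -0.81, SE 0.16, adjusted p = 0.00372), and kmt5c, which encodes SUV4-20H2, at 114, 108 and 115 CPM in LacZ and 140.0, 126 and 126 CPM in hRescue (log2 fold change 0.22, adjusted p = 0.227). The endogenous phf8 lay at 149, 165 and 151 CPM in LacZ and 124, 115 and 116 CPM in hRescue (log2 fold change -0.39, SE 0.13, adjusted p = 0.0473), a call lost under 16 of 20 alternatives. Thus suv420h1 was lower in all hRescue libraries than in LacZ while kmt5c did not pass the test. For suv420h1, scaling over 12 libraries gave 97.0, 66.3 and 126 CPM in CoMo and 61.8, 54.9 and 69.3 CPM in hPhf8. The hPhf8 caps had no morpholino, and the part of the morpholinos in the suv420h1 difference was not tested. The monomethylase gene setd8 did not pass it either (0.39, adjusted p = 0.127). Among readers of methylated histones, l3mbtl1 was higher at 1.26, 2.83 and 3.68 CPM in LacZ and 23.9, 22.6 and 17.2 CPM in hRescue (log2 fold change 3.04, SE 0.38, adjusted p = 0.000543) and l3mbtl3 lower at 40.7, 36.3 and 30.8 CPM in LacZ and 13.5, 8.68 and 13.6 CPM in hRescue (log2 fold change -1.59, SE 0.23, adjusted p = 0.00109).

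A stricter question was which genes were switched on or off, that is, under 0.5 CPM in every library of one group and at 2 CPM or more in every library of the other. By this rule 84 genes were switched on and 24 switched off in hRescue, and all 108 were called in their direction when genes needed 1 read in 3 of 6 libraries (a fit in which 15.8% of 20037 genes were called higher and 18.3% lower). They had been chosen for this difference, so the calls add no support. Levels were low, with group means of 2.35 to 19.3 CPM among genes switched on and 2.31 to 10.6 CPM among genes switched off. In the CoMo libraries, 64 of the 84 were also under 0.5 CPM throughout, and 15 of the 24 were at 2 CPM or more throughout. Counts depended on single libraries. Without hRescue replicate 3, 162 genes were switched on and 57 off, without LacZ replicate 2, 126 and 36, and with 5 CPM required, 22 and 4. Thinned to equal depth, the libraries gave 83 and 23.

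Only 14 genes switched on and 12 switched off had a symbol. The membrane repair gene dysf (gene26500), a name that stands for more than 1 ID and is uncertain for that reason, lay at 0, 0.0289 and 0.08 CPM in LacZ and 19.8, 14.8 and 11.3 CPM in hRescue (log2 fold change 8.53, SE 0.56, adjusted p = 5.35e-05), the solute carrier slc46a2 at 0, 0.0289 and 0 CPM in LacZ and 20.1, 10.4 and 10.4 CPM in hRescue (log2 fold change 9.11, SE 0.65, adjusted p = 5.79e-05) and the lipase inhibitor angptl4 at 0.0601, 0.144 and 0.16 CPM in LacZ and 20.1, 10.9 and 2.83 CPM in hRescue (log2 fold change 6.38, SE 0.79, adjusted p = 0.000406). With so few LacZ reads, the fitted fold changes depend on the prior count and are not bounds. The angptl4 values differed among the hRescue libraries more than those of dysf. Further genes switched on were mixer, ccdc177, the sarcomere gene nrap, the neuronal pentraxin nptx2 and the claudin cldn5. Among genes switched off, c11orf53 lay at 11.4, 8.77 and 11.6 CPM in LacZ and 0, 0 and 0.354 CPM in hRescue (log2 fold change -6.62, SE 0.71, adjusted p = 0.00023), the neurotrophic factor receptor gfra3 at 12.6, 6.61 and 6.16 CPM in LacZ and 0.225, 0.17 and 0 CPM in hRescue (log2 fold change -5.80, SE 0.64, adjusted p = 0.000255) and ddc, the decarboxylase that makes dopamine and serotonin, at 3.49, 7.91 and 2.88 CPM in LacZ and 0, 0 and 0.354 CPM in hRescue (log2 fold change -5.49, SE 0.95, adjusted p = 0.00211). Their hRescue libraries held 0 to 2 counts each. For ddc, scaling over 12 libraries gave 0.704, 5.81 and 3.71 CPM in CoMo and 0.413, 10.5 and 1.58 CPM in hPhf8. Its level thus also varied widely among explants without the SUV4-20H morpholinos. The zinc transporter slc39a12, the chaperone gene clgn, the homeobox gene tlx1 and the opsin opn5 were also switched off.

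The split between higher and lower calls depended on the scaling. With TMM the median log2 fold change of the tested genes was 0.03. With the size factors of DESeq2 it was 0.04 in edgeR, and the DESeq2 test gave 0.05. Dividing by the sum of gene counts alone raised the median by 0.33 and gave 4678 higher and 2406 lower calls, so that 66.04% of calls were higher against 47.2% with TMM. Upper quartile factors raised it by 0.20 and gave 4038 and 2780 (59.2% higher). Including the entry without a gene ID in the library size lowered the median by 0.52 and gave 1596 and 5986, or 21.1% higher. Changes are therefore stated relative to the TMM reference, and counts per cell were not measured.

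No gene crossed from one called direction to the other. Across the 6 scalings (TMM, the DESeq2 test, its size factors in edgeR, library size, upper quartile and library size with the entry), 0 genes called higher with TMM were called lower under another, and 0 the reverse. The scalings mainly shift all fold changes together, with the median moved by -0.52 to 0.33 from TMM. A called gene could therefore hardly cross, and the count of 0 does not test direction. Of the 3141 higher calls, 1586 were called higher under all 6, with a median of 2.55, and of the 3518 lower calls, 2403 were called lower under all 6, with a median of -1.92. Among calls of at least 2-fold the shares kept were 68.7% and 88.8%. The cilium, ionocyte, immediate early and potency lists had medians of the same sign under all 6. The medians of the cell cycle, Notch pathway, neural and H4K20 lists changed sign under at least 1.

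**Figure D5:**
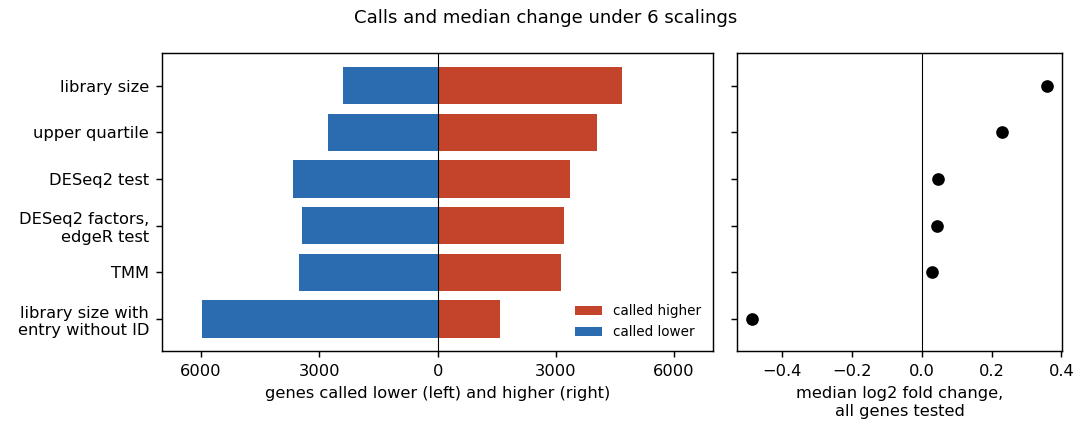
Genes called lower (blue, left) and higher (red, right) in hRescue against LacZ under 6 scalings, and the median log2 fold change of all 17044 tested genes under each (black points). The split runs from 4678 higher and 2406 lower with library size to 1596 higher and 5986 lower with the entry without a gene ID included, and follows the median.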

How the data were processed

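Per the labels, ribosomal RNA was depleted with a NEBNext kit and libraries were directional. According to the study's methods, the authors aligned paired-end reads to the X. tropicalis genome v9.1 of Xenbase with STAR 2.7.1a and deposited its raw counts per gene, which were neither normalised nor pooled. The reverse strand column was taken as sense. The 4 summary rows and the entry without a gene ID were left out of library sizes and tests.

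Genes with at least 1 read in 75% of libraries (5 of 6) were tested with edgeR 4.0.16 in R 4.3.3 (TMM, glmQLFit, glmQLFTest, two-sided, Benjamini-Hochberg), after the pairwise design of the study, which used DESeq2. Standard errors were derived from the fold change and its F statistic. Scripts were tested on simulated data. No libraries of a group agreed within sampling noise. Precision falls with the depth of the hRescue libraries.

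Gene IDs are running numbers. Symbols came from the name columns of 5 supplementary tables, whose values were not used, and 97.02% of them occur in a RefSeq gene table. Some tables were shortened, so an unnamed ID may have a name. Genes with near-identical copies have uncertain counts.

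Named genes were the 12 called genes with the largest change in each direction, list members with the highest level or largest change, 8 genes switched each way, 6 abundant genes and 5 fixed genes; other members were named after their values were seen. Results of 3 named genes and 1 list are not reported here. The members and the other 19 lists were chosen with earlier results of these data known. Alternatives were DESeq2 1.42.0, other scalings and filters, unstranded counts, a fit over 12 libraries and leaving out each library. Libraries sharing a number in the labels departed from their group means together (correlations of 0.28, 0.54 and 0.39 over 14713 genes), so the numbers were taken as pairs in a blocked fit.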

Additional observations from a re-analysis of the deposited data

Results flagged for a closer look

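Signals outside the gene counts differed between the groups. The entry that collects features without a gene ID, which is not used in any test, held 57.0% ± 3.5 (SD, n = 3) of feature counts in hRescue against 22.5% ± 5.1 (SD, n = 3) in LacZ, and every hRescue library lay above every LacZ library (exact permutation p = 0.1, adjusted 0.16). Counts on the antisense strand of genes made up 3.98% ± 0.16 (SD, n = 3) of gene counts in hRescue against 2.54% ± 0.21 (SD, n = 3) in LacZ, again with no overlap (exact permutation p = 0.1, adjusted 0.16). Their part in the differences between the groups was not tested beyond the scaling that includes the entry and the fit on unstranded counts.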

How the results depend on the processing

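Under all 20 alternatives of the fit the number of called genes stayed within 1.5 times the 6659 reported. The replicate block raised it to 7796 and changed no count of all genes by more than that factor, and among the named values given the pairing changed only the calls of dnah5 and foxi1 and the count of ribosomal protein genes called lower (8 in place of 5). Leaving out 1 library gave 4939 to 6697 called genes, with 2203 to 3132 higher and 2736 to 3565 lower, and 4055 to 4934 changed by at least 2-fold. Scaling with the entry without a gene ID gave 1596 higher and 5986 lower calls, and turned 2 increases around, with a ccng1 log2 fold change of -0.064 and an ier5 log2 fold change of -0.043, neither of them called. The lower share of calls under 1 CPM, 0.96%, was 2.75% with CoMo classes, 0.23% with DESeq2, 0.17% with library size, 0.19% with upper quartile factors, 8.58% with the entry included and 2.74% after thinning. From 1 to 10 CPM it was 21.9% with library size and 68.5% with the entry included, against 36.3%, and from 10 to 100 CPM 41.1% with library size against 62.9%. Genes switched on and off numbered 237 and 74 with 1 CPM required, 22 and 4 with 5 CPM, and 0 and 16 when off meant 0 counts and on at least 10 counts in every library. That last split was 18 and 1 after thinning to equal depth. Leaving out 1 library gave 88 to 162 switched on and 26 to 57 switched off. Of 180 named genes tested, 141 kept their call and direction under every alternative, and the calls most often lost were those of phf8 (16 of 20), lin28a (15), ventx3.2 (11) and ctgf (10). The depth of the hRescue libraries and the filter on reads limit decreases of genes under 1 CPM, where counts are below 10.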

Other observations

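Lists not described above gave further values. Of 16 tested Notch pathway IDs, 7 were called higher and 5 lower. The effectors hes1, at 46.0, 40.6 and 54.7 CPM in LacZ and 313, 351 and 179.8 CPM in hRescue (log2 fold change 2.58, SE 0.26, adjusted p = 0.000256), and hes7.2, at 0.962, 2.71 and 0.64 CPM in LacZ and 34.0, 26.6 and 16.6 CPM in hRescue (log2 fold change 4.06, SE 0.52, adjusted p = 0.000608), were among those higher, and the ligand jag1, at 39.99, 59.6 and 47.4 CPM in LacZ and 9.24, 9.87 and 7.25 CPM in hRescue (log2 fold change -2.48, SE 0.23, adjusted p = 0.000204), among those lower. Genes of the hes and hey families made up all 7 genes called higher, and ligands and receptors all 5 called lower. The receptor notch1 (-0.25, adjusted p = 0.348) and the ligand dll1 (0.50, adjusted p = 0.18) overlapped between the groups.

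Ribosome biogenesis genes were called higher in 14 of 24 cases and lower in 6. The snoRNP protein gene nop56 lay at 102, 112 and 96.4 CPM in LacZ and 222, 204 and 178 CPM in hRescue (log2 fold change 0.96, SE 0.15, adjusted p = 0.00133) and the RNA polymerase subunit polr1c at 4.09, 3.09 and 4.96 CPM in LacZ and 26.0, 15.3 and 20.9 CPM in hRescue (log2 fold change 2.37, SE 0.29, adjusted p = 0.000527), whereas the helicase ddx21 was lower (-0.66, adjusted p = 0.00417). The higher calls fell to 7 without LacZ replicate 1, 6 without LacZ replicate 3, 9 without hRescue replicate 1 and 8 without hRescue replicate 2, and to 3 with the entry without a gene ID included in the scaling. Of 12 ribosomal protein IDs, 5 were called lower and 0 higher, with 8 lower calls under the replicate block, 11 under that scaling and 3 under library size alone. Among the 5 was rpl10a, at 117, 128 and 113 CPM in LacZ and 43.4, 54.6 and 55.9 CPM in hRescue (log2 fold change -1.22, SE 0.16, adjusted p = 0.000663). Of 13 tested histone genes, 8 were called higher (5 without hRescue replicate 2) and 4 lower (2 without LacZ replicate 3). Leaving out names known only through the comparison that shares the hRescue libraries, 10 histone genes remained, with 5 called higher and 4 lower. The linker histone h1f0 lay at 66.7, 70.8 and 79.5 CPM in LacZ and 12.3, 19.6 and 16.8 CPM in hRescue (log2 fold change -2.16, SE 0.21, adjusted p = 0.000236) and hist1h2bk at 1.98, 1.59 and 7.44 CPM in LacZ and 88.3, 100.1 and 48.5 CPM in hRescue (log2 fold change 4.50, SE 0.60, adjusted p = 0.000693). Replicative histone genes are near-identical copies and their values are uncertain.

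Of the 6659 called genes, 3231 had a symbol. By the rule of 0 counts in every hRescue library and at least 10 counts in every LacZ library, 16 genes were switched off, 12 of them without a symbol, and this rule favours the deeper LacZ libraries.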
